A study of Mus musculus with 5 samples.

Results

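The paraoxonase family of the mouse, Pon1, Pon2 and Pon3, was followed in retinal RNA after form deprivation, and these 3 genes were taken by name from the 33636 genes of the count table, each symbol having 1 row. Pon1 entered as a gene that was selected on its difference between goggled and control eyes in these same libraries, so its values in that contrast are given as a description with no test, whereas Pon2 and Pon3 entered as the other members of the family. All mice were wild-type males of the inbred strain C57BL6/J. A diffuser goggle was fixed over the right eye at P28 and worn for 2 weeks to blur the retinal image and induce form-deprivation myopia (FDM), and the retinas were collected at P42. The uncovered left eye of the goggled mice was the control, so that the control eyes belonged to treated animals and untreated mice were not part of the comparison. Poly-A RNA from 2 FDM and 3 control retinas was analysed. FDM 1 and Control 1 came from mouse 1, FDM 3 and Control 3 from mouse 3, and Control 2 had no partner here. The mouse numbers follow the count table and the study's supplement, since the sample title numbers FDM 3 as 2. The p-values set the difference between groups against the variation within groups, estimated from these 5 libraries with information shared across genes. With so few eyes, they hold for these 5 libraries only.

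Paraoxonases are calcium-dependent enzymes that hydrolyse lactones and aryl esters. PON1 is made mainly by the liver, is secreted, and circulates on high-density lipoprotein (HDL), where it limits the oxidation of lipids, and PON3 is also carried on HDL. PON2 stays inside cells, is expressed in many tissues, and lowers superoxide release from mitochondria.

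The 3 genes lie side by side on the minus strand of chromosome 6 (GRCm38, GENCODE M21), within 130 kb. Pon1 (ENSMUSG00000002588) spans chr6:5168090-5193946, Pon3 (ENSMUSG00000029759) chr6:5220852-5256286 and Pon2 (ENSMUSG00000032667) chr6:5264147-5298455. Their reads are assigned by sequence, so how far the transcripts resemble each other bears on every value below. The same exonic stretch of 60 coding bases is shown here for each gene, read on the minus strand, with capitals at the 27 positions where the 3 genes are not all identical.
Pon1: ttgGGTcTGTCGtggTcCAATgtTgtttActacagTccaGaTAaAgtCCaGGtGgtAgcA
Pon3: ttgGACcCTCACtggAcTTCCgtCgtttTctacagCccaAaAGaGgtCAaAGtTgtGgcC
Pon2: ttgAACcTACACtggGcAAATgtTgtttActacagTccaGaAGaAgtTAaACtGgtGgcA
These stretches lie at chr6:5177257-5177316, chr6:5232371-5232430 and chr6:5269025-5269084. They hold the longest run shared by any pair of the coding sequences, 23 bases common to Pon1 and Pon2. Over the aligned coding bases, Pon1 and Pon2 were 66.4% identical, Pon2 and Pon3 65.8%, and Pon1 and Pon3 63.1%. No stretch of 31 bases was shared by any pair, over all annotated transcripts.

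The estimated counts summed to between 40599047 and 56534931 per library, and 3 counts corresponded to 0.0531 to 0.0739 CPM, the unit used here for counts scaled by depth and TMM normalization. Genes with over 10 counts in 2 or more libraries were tested, 17432 in all, and edgeR's quasi-likelihood test of FDM against control gave 281 (1.61%) at an unadjusted p under 0.05, 79 higher and 202 (1.16%) lower. None had an adjusted p under 0.05, against 3 in DESeq2, which gave 172 genes at the unadjusted threshold. Rod photoreceptor markers summed to between 52639 and 65979 CPM, as the labelled tissue would hold. Some libraries also held transcripts of neighbouring tissue. Markers of the retinal pigment epithelium (RPE), the cell layer behind the photoreceptors, summed to 142 to 158 CPM in FDM 1, FDM 3 and Control 1 but to 373 and 438 CPM in Controls 2 and 3. Lens markers reached 2460 CPM in FDM 3 against 4.83 to 41.6 CPM in the other libraries, and muscle markers 72.4 CPM in Control 3 against 9.39 to 10.9 CPM elsewhere.

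Pon2 was the main paraoxonase transcript of these retinas, Pon1 was far less abundant, and Pon3 was the least abundant. Levels between genes were compared as CPM per kb of exon (the union of annotated exons). On this scale Pon2 stood at 4.01 ± 0.435 (SD, n = 2) in FDM and 4.32 ± 0.465 (SD, n = 3) in control eyes, Pon1 at 0.378 ± 0.118 and 1.13 ± 0.470, and Pon3 at 0.121 ± 0.050 and 0.224 ± 0.164. The order Pon2, Pon1, Pon3 held in every library. Pon2 lay above the range of the others, from 3.70 to 4.62 CPM per kb over the libraries, while the ranges of Pon1 (0.294 to 1.56) and Pon3 (0.0740 to 0.399) overlapped. The ratio of Pon2 to Pon1 per kb was 8.03 and 14.7 in the libraries FDM 1 and FDM 3, and 6.00, 2.92 and 3.83 in Controls 1, 2 and 3. It was thus highest in the FDM eyes, where Pon1 was low, and this order follows from the values on which Pon1 was selected.

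The secreted enzyme Pon1 had 58 and 41 counts in the libraries FDM 1 and FDM 3, and 73, 258 and 166 in Controls 1, 2 and 3. Both FDM libraries lay below every control. In counts, the step from Control 1 to Controls 2 and 3 was larger than that from the FDM libraries to Control 1. In log2 CPM around the mean of all libraries, FDM 3 stood at -1.24, Control 1 at -0.14 and Control 3 at 0.80. On that scale the step from FDM 3 to Control 1 was larger than that from Control 1 to Control 3. In counting error alone, the 95% Poisson intervals of FDM 1 (44.0 to 75.0 counts) and Control 1 (57.2 to 91.8) overlapped. The level was 1.34 and 0.852 CPM in the FDM eyes and 1.83, 4.52 and 3.49 CPM in the control eyes, a mean of 1.09 ± 0.343 (SD, n = 2) against 3.28 ± 1.36 CPM (SD, n = 3). The fitted log2 fold change, FDM over control, was -1.60 with an SE of 0.40. It ran from -1.95 to -1.29 with each library left out in turn. Its sign there follows from both FDM libraries lying below every control, the contrast on which Pon1 was selected. With the mouse as a block, which leaves Control 2 without weight, the fold change was -1.26.

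**Figure D1:**
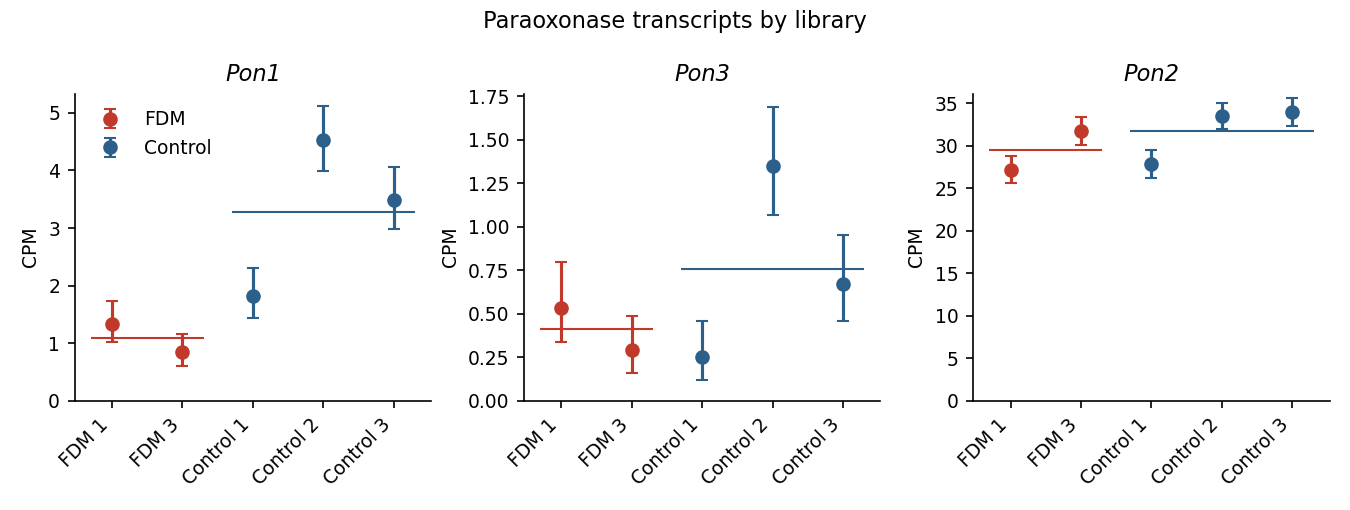
Level of Pon1, Pon3 and Pon2 in CPM (vertical axes, linear from 0, with a scale of its own for each gene) in the 5 libraries. Points are libraries, bars are 95% Poisson intervals and horizontal lines are group means; Pon1 is lowest in the FDM libraries, Pon3 is lowest in Control 1, and Pon2 runs only from 27.2 to 33.9 CPM.

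Pon3, the second HDL-associated member, had 23 and 14 counts in the FDM libraries and 10, 77 and 32 in Controls 1, 2 and 3. The groups overlapped, with Control 1 as the lowest library and Control 2 as the highest. The intervals were wide, from 4.80 to 18.4 counts in Control 1 and from 7.65 to 23.5 in FDM 3. The means were 0.411 ± 0.169 CPM (SD, n = 2) in FDM and 0.758 ± 0.555 CPM (SD, n = 3) in control eyes, with a log2 fold change of -0.93 (SE 0.65). This difference did not exceed the spread between replicates (edgeR, unadjusted p = 0.192, adjusted p = 1.0). The estimate rested on single libraries, being -1.32 without Control 1 (edgeR, unadjusted p = 0.0204, adjusted p = 0.817) and -0.20 without Control 2 (adjusted p = 0.998), and it was -0.19 with the mouse as a block (adjusted p = 0.946).

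The intracellular Pon2 had 1179 and 1525 counts in the FDM libraries and 1110, 1908 and 1612 in Controls 1, 2 and 3. Scaled to depth these were 27.2, 31.7, 27.8, 33.5 and 33.9 CPM, so FDM 3 stood above Control 1 and the groups overlapped. The highest library exceeded the lowest by 1.25-fold, against 5.31-fold for Pon1 and 5.39-fold for Pon3. The means of 29.4 ± 3.19 CPM (SD, n = 2) in FDM and 31.7 ± 3.42 CPM (SD, n = 3) in control eyes gave a log2 fold change of -0.11 (SE 0.12), which did not pass the test (edgeR, unadjusted p = 0.388, adjusted p = 1.0). Thus 1 of the 3 members, Pon1, was past the unadjusted threshold, against 1.61% of all tested genes in either direction and 1.16% lower in FDM. The same gene was the only member with both FDM libraries below every control, an order held by 6.67% of the tested genes, and nothing is read from these counts because Pon1 was chosen on this contrast.

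The eyes of the same mouse were then set side by side. In mouse 1, Pon1 was 0.45 lower in the goggled eye on the log2 CPM scale, with a 95% counting interval of the difference from -0.97 to 0.07. In mouse 3 the log2 difference was -2.04 (-2.57 to -1.54), a level 4.10-fold lower in the goggled eye. Both differences were negative, a direction fixed by the order of the libraries on which Pon1 was selected. The counting interval lay wholly below 0 in mouse 3 only. Pon3 moved in opposite directions, with a log2 difference of 1.08 (-0.04 to 2.32) in mouse 1 and -1.21 (-2.23 to -0.26) in mouse 3. Pon2 differed by -0.03 (-0.15 to 0.09) in mouse 1 and by -0.10 (-0.20 to 0.00363) in mouse 3, so that both intervals covered 0. These intervals cover counting error only. With 2 pairs, no test across mice was made apart from the edgeR fit with the mouse as a block, which rests on the same 2 pairs. If FDM 3 was set against Control 2, as the sample titles would number it, the log2 difference was -2.41 for Pon1, -2.21 for Pon3 and -0.08 for Pon2.

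**Figure D2:**
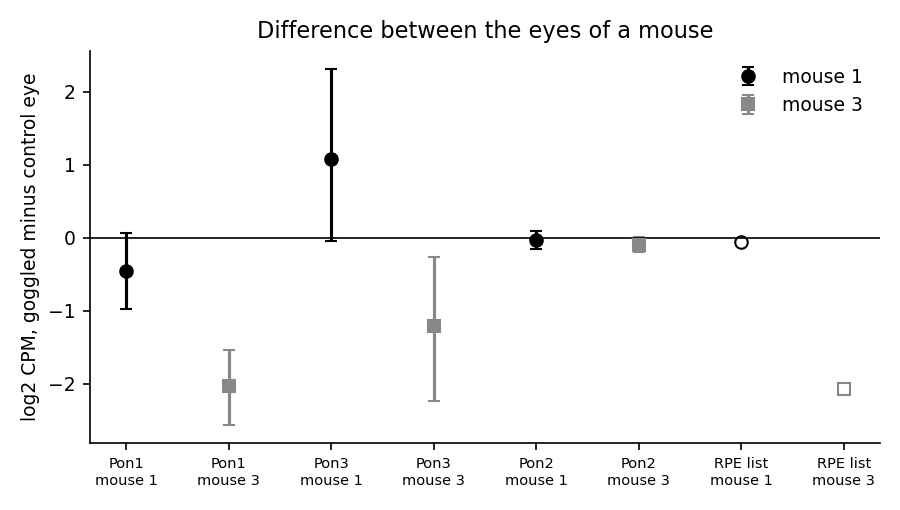
Difference in log2 CPM, goggled minus control eye, within mouse 1 (black circles) and mouse 3 (grey squares), for Pon1, Pon3 and Pon2 with 95% counting intervals, and the median difference of 17 RPE markers (open symbols, no interval). Pon1 is at -0.45 and -2.04, Pon3 changes sign, Pon2 stays near 0, and the RPE median is at -0.06 in mouse 1 and -2.07 in mouse 3.

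Several transcripts of the RPE varied over the libraries much as Pon1 did. All 17 RPE markers were tested and had log2 fold changes below 0, with a median of -1.43 against -0.01 over all tested genes. In edgeR, 9 were lower at the unadjusted threshold, against 1.16% lower of all tested genes. Those 9 were also in the list of changed genes that the study drew from these libraries, and so are not independent evidence of their direction. The count was 3 without FDM 3, 4 without Control 3 and 14 without Control 1. Rpe65, the isomerase of the visual cycle, had 238 and 217 counts in the FDM eyes and 214, 1589 and 1123 in the control eyes, with a log2 fold change of -1.93 (SE 0.62, edgeR unadjusted p = 0.0160, adjusted p = 1.0). Kcnj13, a potassium channel of the RPE, had 26 counts in each FDM eye and 46, 320 and 177 in the control eyes (-2.63, SE 0.64, unadjusted p = 0.00409, adjusted p = 1.0). Ttr, the carrier of thyroxine and retinol-binding protein, had 1387 and 1210 counts against 1348, 6615 and 4400 (-1.50, SE 0.46, unadjusted p = 0.0134, adjusted p = 1.0). In Rpe65, Kcnj13 and Ttr, as with Pon1, Controls 2 and 3 were high and Control 1 lay closer in counts to the FDM libraries. For Rpe65, Control 1 did not exceed FDM 1. Other markers, among them Dct, Pmel, Tyrp1 and Mlana, were highest in Control 3, whereas Pon1 was highest in Control 2. Dct had 1067 counts in Control 2 and 3653 in Control 3. Krt18 differed little, with a mean of 44.5 CPM in FDM and 48.1 CPM in control eyes.

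Within mouse 1 the summed RPE markers were nearly equal in the 2 eyes (control over FDM 1.07, 9 of 17 markers lower in the goggled eye), whereas in mouse 3 they were 3.08-fold higher in the control eye and 17 of 17 were lower in the goggled eye. Expressed per 1000 CPM of RPE markers, Pon1 was 9.05 and 5.99 CPM in the FDM libraries and 11.6, 12.1 and 7.98 CPM in Controls 1, 2 and 3. On this scale the groups overlapped, with FDM 1 of mouse 1 above Control 3 of mouse 3, while within each mouse the goggled eye was the lower (9.05 against 11.6 in mouse 1 and 5.99 against 7.98 in mouse 3). The marker sum is weighted to its abundant genes, so these ratios depend on which markers are summed, and they carry no counting interval. Krt18 had a log2 difference of -0.22 in mouse 3, where the median marker stood at -2.07 and Pon1 at -2.04. In mouse 1 the median marker stood at -0.06 and Pon1 at -0.45, with a counting interval from -0.97 to 0.07. In FDM and control eyes, Krt18 had means of 44.5 and 48.1 CPM, Ttr 28.6 and 80.8 CPM, and Dct 9.58 and 34.3 CPM. Pon3 per 1000 CPM of RPE markers ran from 1.54 in Control 3 to 3.62 in Control 2, with the FDM eyes in between. The part of RPE carry-over in the Pon1 difference was not tested, and in bulk retina fewer cells of a type and less RNA per cell cannot be told apart.

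**Figure D3:**
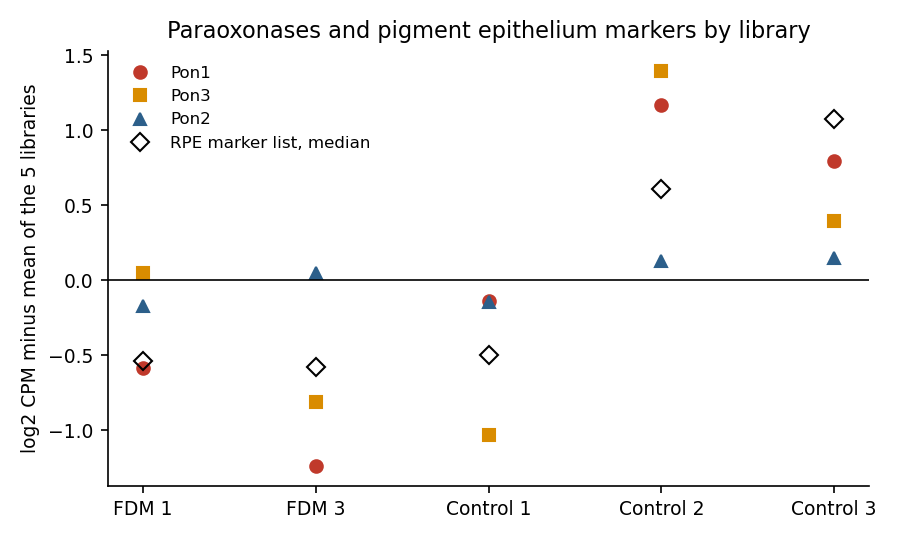
Log2 CPM of Pon1, Pon3 and Pon2 and the median of 17 RPE markers (open diamonds) in each library, each as the difference from its mean over the 5 libraries (vertical axis, log2). Pon1, Pon3 and the RPE median are above 0 in Controls 2 and 3, whereas Pon2 stays close to 0 in every library.

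Markers of other tissues were set beside the members for the same reason. Liver and plasma transcripts, the main known source of PON1, had few counts: of 15 markers, 4 had no count in any library, Alb (albumin) had 1 count in all, and the markers other than Ttr and Trf, which other tissues also make, summed to between 90 and 116 counts per library. Stroma markers of choroid and sclera summed to 19.8 and 30.4 CPM in the FDM eyes and to 22.6, 48.8 and 59.3 CPM in the control eyes. The groups thus overlapped, and 1 of 7 tested was lower in edgeR, against 1.16% lower of all tested genes. Endothelial markers ran from 234 to 283 CPM and blood markers from 33.0 to 47.6 CPM, with FDM 3 the lowest library for blood. FDM 3, the library rich in lens transcripts, was the lowest for Pon1 but not for Pon2 or Pon3. The part of these tissues in the members' values was not tested.

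The genes whose level varied over the 5 libraries most like each member were found from the root mean square (RMS) difference of centred log2 CPM over 17320 genes. For Pon1 these were Gm6170 (RMS 0.110), Kcnv1 (0.130), Ermn (0.210), Slc7a10 (0.216) and Ttr (0.227). Gm6170 and Kcnv1 had at most 20 and 30 counts in a library, and Ermn, a cytoskeletal protein of myelinating cells, had 82 and 55 counts in the FDM eyes and 71, 265 and 189 in the control eyes. Among the 100 genes nearest to Pon1 were 9 of the 17 RPE markers, against 3 for Pon3 and 0 for Pon2. Pon1 was selected on these same libraries and Pon2 varied little over them (RMS 0.134), so no origin is read from these counts. For Pon3 the nearest were Zkscan16 (0.248), Tmem74 (0.262), Clec7a (0.265), Gm44524 (0.270) and Zbed6 (0.313), all with their highest count in Control 2. For Pon2 they were Slco1c1 (0.0211), Tsc22d3 (0.0232), Sptssb (0.0268), Mkks (0.0271) and Rfc4 (0.0274), and 1475 genes lay within 0.1 of it, against 0 for Pon1 and Pon3. These are descriptions over 5 libraries that share the same depth and tissue differences, and Pon3 was the 123rd of the 17320 genes in nearness to Pon1.

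Of the 15 other annotated genes within 500 kb of the cluster, 8 were in the table and 5 were tested. At the unadjusted threshold 1 was lower in FDM, against 1.16% lower of all tested genes. Sgce, Peg10, Ppp1r9a and Dync1i1 had log2 fold changes between -0.06 and -0.00, none past the threshold (edgeR, lowest unadjusted p = 0.588). Ppp1r9a, whose annotated end lies next to Pon1, had 3588 and 3768 counts in the FDM eyes and 2859, 5916 and 3632 in the control eyes. Pdk4, a kinase that restrains the pyruvate dehydrogenase complex, had 42 counts in each FDM eye and 53, 64 and 78 in the control eyes, with a log2 fold change of -0.56 (SE 0.24, edgeR unadjusted p = 0.0481, adjusted p = 1.0). That call was lost without FDM 1, FDM 3, Control 1 or Control 3, in DESeq2 (unadjusted p = 0.123) and with other normalization factors.

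Other antioxidant enzymes are the setting in which paraoxonases are usually placed. All 34 listed were tested, and none passed after adjustment. At the unadjusted threshold 0 were higher and 2, Sod3 and Gpx3, were lower (edgeR), against 1.16% lower of all tested genes. The median log2 fold change of the list was -0.06, against -0.01 over all tested genes. Sod3, the secreted superoxide dismutase, had 77 and 200 counts in the FDM eyes and 127, 514 and 455 in the control eyes (log2 fold change -1.29, SE 0.52, edgeR unadjusted p = 0.0409, adjusted p = 1.0). Gpx3, the plasma glutathione peroxidase, had 187 and 909 counts against 405, 4444 and 3828 (-2.27, SE 0.92, unadjusted p = 0.0416, adjusted p = 1.0). In both, Control 1 lay below FDM 3, so the groups overlapped, and Controls 2 and 3 were the highest, as for the RPE markers. Both calls were lost without FDM 1, Control 2 or Control 3 and in DESeq2 (unadjusted p = 0.0816 and 0.0596).

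With the mouse as a block, Sod3 was at -1.06 (edgeR, adjusted p = 0.0208) and Gpx3 at -1.80 (adjusted p = 0.00104). These values rest on 2 pairs of eyes and on variation estimates shared across genes. The same fit gave 54 genes an adjusted p under 0.05, among them 13 lens and 2 muscle markers. The lens gene Cryaa was 1 of these, with log2 differences of -0.12 in mouse 1 and 7.87 in mouse 3. An adjusted p under 0.05 in this fit thus need not mean a like difference in both mice. The log2 differences in mice 1 and 3 were -0.84 and -1.20 for Sod3 and -1.23 and -2.09 for Gpx3. Under this fit 5 of the 34 enzymes were lower at the unadjusted threshold, against 639 lower of all 17432 tested genes (7.23% were called in either direction). The further 3 were Gpx4, Prdx2 and Msrb1, with log2 fold changes of -0.12, -0.14 and -0.25. Gpx4 and Prdx2, the most abundant of the list, had means of 310.4 and 173 CPM in FDM eyes without the block and did not pass there (edgeR, unadjusted p = 0.596 and 0.257). The remaining 32 enzymes ran from -0.35 to 0.11 in the unblocked fit.

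HDL and lipoprotein partners of the paraoxonases were listed next. Of these 16 genes, 12 were tested, 0 passed the threshold in either direction (edgeR), and their median log2 fold change was -0.08 within a range from -0.35 to 0.18. Clu (clusterin), the most abundant, was at 522 ± 15.6 CPM (SD, n = 2) in FDM and 542 ± 29.1 CPM (SD, n = 3) in control eyes (-0.05, edgeR unadjusted p = 0.549). Apoe, the main apolipoprotein of neural tissue, was at 442 ± 29.5 and 526 ± 82.0 CPM (-0.25, unadjusted p = 0.113). With the mouse as a block, Apoe (-0.18) and the phospholipid transfer protein Pltp (-0.23) were lower at the unadjusted threshold (edgeR, adjusted p = 0.654 and 0.619). Under this fit 639 of all 17432 tested genes were lower at that threshold. Apoa1, the main HDL protein, had only 7 to 9 counts per library.

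Of 13 other esterases and lactonases, 6 were tested, and none passed the threshold (edgeR, lowest unadjusted p = 0.0878, median log2 fold change -0.06). Ache, the acetylcholinesterase, was at 102 and 104 CPM in FDM and control eyes (-0.02, edgeR unadjusted p = 0.861), and Esd, the S-formylglutathione hydrolase, at 47.7 and 49.0 CPM (-0.04, unadjusted p = 0.661). Ces1d, a carboxylesterase, had 0 and 11 counts in the FDM eyes and 3, 54 and 28 in the control eyes, and was lower at the unadjusted threshold with the mouse as a block (-1.55, adjusted p = 0.639) and, among the libraries left out, without FDM 3 or without Control 1.

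**Figure D4:**
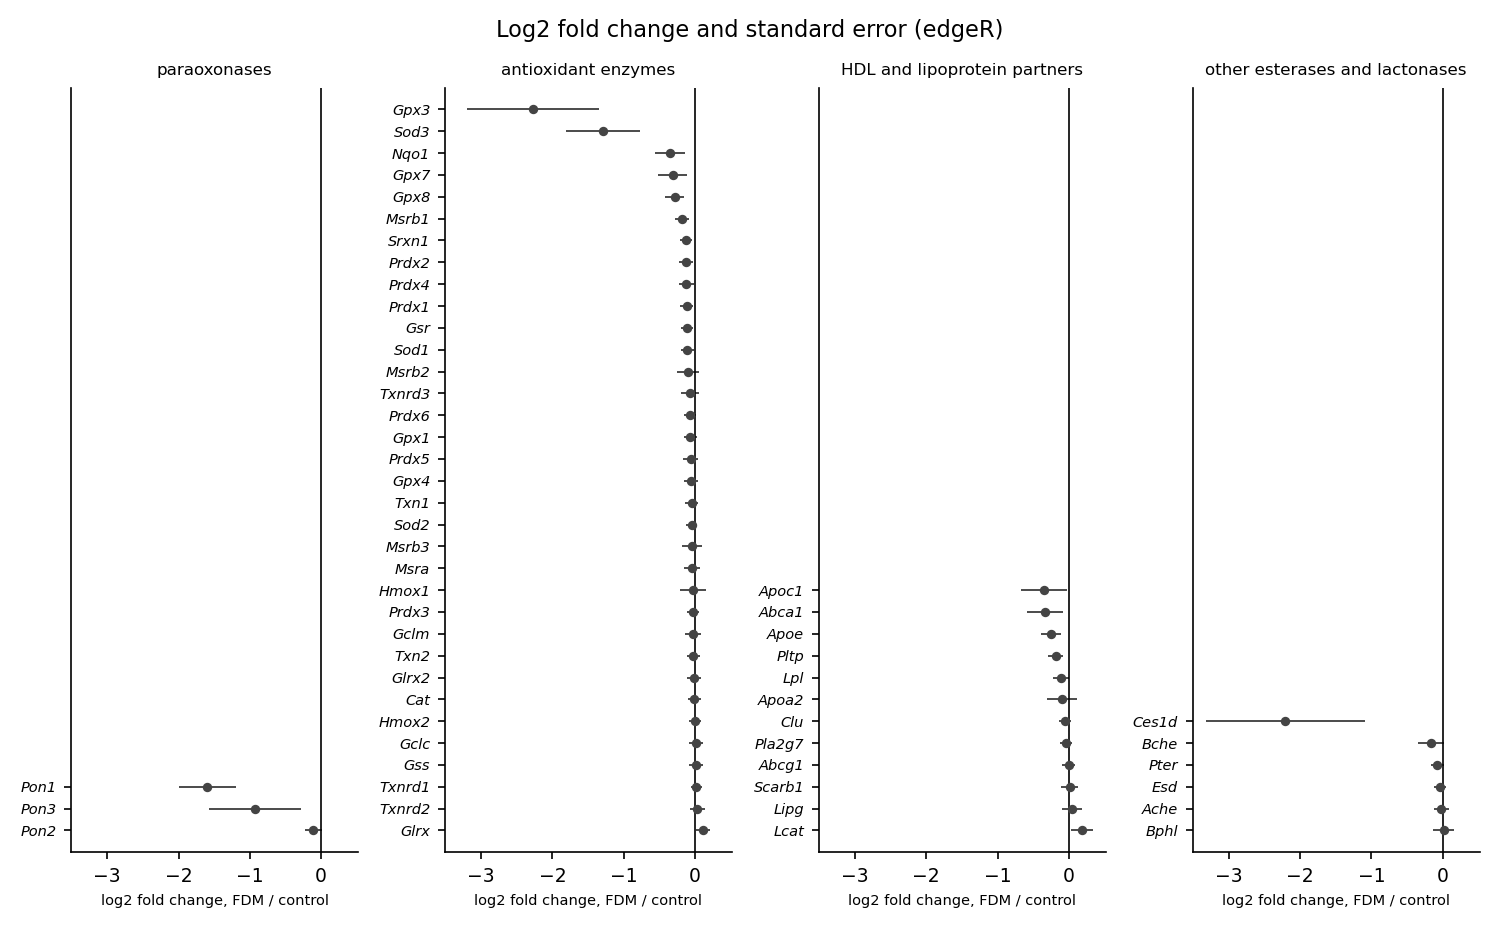
Log2 fold change of FDM over control eyes (horizontal axis, points) with its standard error (bars) from edgeR, for the paraoxonases, 34 antioxidant enzymes, 12 HDL and lipoprotein partners and 6 other esterases and lactonases. Most genes sit near 0, and Gpx3, Sod3, Pon1, Pon3 and Ces1d stand to the left with wide bars.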

How the data were processed

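Retinal RNA of 2 FDM and 3 control eyes was measured by RNA-seq (TruSeq v2, which does not keep strand). According to the submitters' processing notes, Trimmomatic 0.39, Salmon 1.10.1 and R 4.3.1 were used. The authors deposited estimated counts per gene as whole numbers, and a signal of normalized counts, used here only in alternatives. Groups came from the sample labels. From the counts, edgeR 4.0.16 (R 4.3.3, TMM, quasi-likelihood test, no covariate) tested genes with over 10 counts in 2 or more libraries, with Benjamini-Hochberg adjustment over all 17432. SE is the log2 fold change over the square root of F. Counting intervals are 95% and cover counting error only. Alternatives used DESeq2 1.42.0, limma 3.58.1 with pseudocounts of 1 or 0.1, other factors and filters, a replicate block, and each library left out. Eyes were paired because they come from the same mouse (from the study's supplement; correlation of deviations 0.252 and 0.134, and 0.143 for FDM 3 with Control 2, the label numbering, so it does not favour either pairing). Closest library pair: chi-square per degree of freedom 11.95. The code was tested on simulated data. Members and lists were chosen with earlier results of these data known. Named genes were the members, tested genes within 500 kb, the 5 nearest patterns per member, list genes past the threshold, the 2 most abundant of each list, and marker genes. Ermn, Pltp, Msrb1, Ces1d, Alb and Apoa1 were singled out after their values were seen.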

Additional observations from a re-analysis of the deposited data

How the results depend on the processing

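Under the other settings the Pon1 log2 fold change ran from -1.95 to -1.26 and Pon2 from -0.22 to -0.00, both below 0 in all 15 settings. For Pon1 this sign follows from the order of the libraries on which it was selected. Pon3 ran from -1.41 to -0.20 with each library left out, was -0.82 (edgeR, unadjusted p = 0.0499) with a block on the label numbers, and was not tested where every library needed over 10 counts, since Control 1 had 10. The genes called numbered 172 in DESeq2, 498 with no count filter (24659 tested), 500 and 493 in limma with pseudocounts of 1 and 0.1, 1261 with the mouse as a block, 439 with the label-number block, and 146 to 946 with a library left out. The higher calls were 79 of 281 in the reported fit, 622 of 1261 with the mouse block, 213 of 500 in limma with 1, and 347 of 535 without Control 2, where most calls were higher. The lists gave 0 antioxidant enzymes in DESeq2, 5 with the mouse block and 0 to 4 with a library left out. HDL partners gave 2 with the block and 0 to 2 with a library left out, esterases 1 and 0 to 1, and neighbours 0 to 1 with a library left out. The log2 of Pon2 over Pon1 per kb was 3.94 when coding length replaced exon length, and kept its sign throughout. The mouse block changed no call of Pon2 or Pon3, and nothing is read from the call of Pon1, which was chosen on this contrast. The causes were not tested. Pon3, with 10 to 77 counts per library, has wide counting intervals. For Pon1 in CPM, the counting intervals of Control 2 (3.99 to 5.11) and Control 3 (2.98 to 4.07) overlap. That of Control 1 (1.43 to 2.30) lies below both, so the spread of Pon1 between Control 1 and the other controls exceeds counting error. Only 1 FDM library remains where the other is left out, which then is assumed to vary like the controls.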
